A study of Arabidopsis thaliana with 8 samples.

Results

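The psaA-psaB operon of the chloroplast genome was followed through a contact map of plastid DNA. The map divides the plastid chromosome (Pt, TAIR10) into 155 bins of 1 kb, and the operon was taken as the 5 bins from base 37001 to base 42000, with 765 of the map's 12090 bin pairs holding at least 1 of them. They carry psaA and psaB, which are 2 of the 129 genes in the plastid gene table used for names. By that table, psaB lies in bins 37001, 38001 and 39001, psaA lies in bins 39001, 40001 and 41001, and the end of rps14 shares bin 37001 with psaB. Bins are named here by their first base.

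Contacts were measured by Hi-C, in which DNA ends that lie near each other are ligated and the joined fragments are counted by sequencing. All 8 libraries came from chloroplast membrane samples of leaves of wild type Arabidopsis thaliana, ecotype Col-0, aged 14 days. The crosslinked group has 4 libraries treated with EGS, an amine-reactive crosslinker with a long spacer, and with formaldehyde. The control group has 4 libraries labelled as not crosslinked. The protocol text, with EGS at 5 mM applied during 45 min and formaldehyde at 4% during 4 h, is the same for every sample, so the treatment label alone separates the groups. Nothing in the labels says that replicates came from separate plants or preparations, so the p-values measure the spread between these libraries, which may be technical. The names psaA and psaB are positions on the map here: the assay measured DNA contacts and no RNA or protein.

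PsaA and PsaB are the large membrane proteins that form the heterodimer at the heart of photosystem I and bind P700, the chlorophyll pair where charge separation begins. In land plant plastids their genes are neighbours and are transcribed together with rps14, which encodes a small-subunit ribosomal protein, in the direction from psaA through psaB to rps14. Both proteins are made on plastid ribosomes and inserted into the thylakoid membrane, the internal membrane to which plastid DNA is also attached at places. On this map the upstream end of the operon is thus bin 41001 and the downstream end is bin 37001.

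The libraries held 351828 to 708524 contacts. Replicates 1 and 2 were deeper than replicates 3 and 4 in both groups, so changes are also given within each pair. Contacts spanning over 5 kb ranged from 10932 to 52972 in crosslinked libraries. They numbered 50516 and 32338 in non-crosslinked replicates 1 and 2, but only 2643 and 4225 in replicates 3 and 4. The operon's own part of these came to 3880, 2196, 1352 and 828 contacts with crosslinks, replicates in order, and to 3014, 1956, 117 and 203 without. Long-range values of the last 2 libraries therefore rest on few counts.

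Every bin of the operon made more contacts with the rest of the map in crosslinked libraries, and the largest changes were in the psaA bins. The total of a bin, meaning its contacts with all other bins, was scaled to normalized counts (CPM, counts scaled to a fixed library size) with TMM and tested by edgeR's quasi-likelihood test, with Benjamini-Hochberg adjustment over all bins and a threshold of 0.05. All 5 operon bins were higher, while 22.6% of all bins were. The median log2 change was 0.71 over the 5 bins and -0.02 over the whole map. The groups did not overlap in 4 of the 5 bins, as was true of 45.2% of all bins.

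Bin 41001, at the upstream end of psaA, had totals of 3637, 3127, 3422 and 2898 CPM with crosslinks (replicates 1 to 4, an order kept below), against 1907, 1786, 900 and 1097 CPM without. All crosslinked libraries lay above all controls, and both controls of low depth lay below the deeper ones. The log2 change was 1.18 ± 0.19 (SE, n = 4 per group, edgeR adjusted p = 5e-07), or 2.26-fold, which ranked 1 of 155 bins.

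Bin 40001, in the body of psaA, ranked 2 of 155. Its totals were 3297, 2937, 3001 and 2806 CPM with crosslinks, and 1873, 1833, 765 and 887 CPM without. The groups were again apart, and the log2 change was 1.14 ± 0.22 (SE, n = 4 per group, edgeR adjusted p = 1.5e-05).

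The psaB bins had smaller changes. At the downstream end, bin 37001 (psaB and rps14) gave 3345, 2942, 3008 and 2836 CPM with crosslinks and 2237, 2339, 1465 and 1303 CPM without, and the log2 change was 0.71 ± 0.18 (SE, n = 4 per group, edgeR adjusted p = 0.00076). In bin 38001, which lies wholly in psaB by its names, the totals were 4016, 3593, 3315 and 3374 CPM against 2799, 3145, 2429 and 2499 CPM. Both bins kept the groups apart. Bin 38001 changed by 0.39 ± 0.12 on the log2 scale (SE, n = 4 per group, edgeR adjusted p = 0.0045).

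Bin 39001, where psaA and psaB meet, gave 3799, 3605, 3287 and 3061 CPM with crosslinks and 2842, 3078, 2225 and 2276 CPM without. Crosslinked replicate 4 lay just below non-crosslinked replicate 2, so the groups overlapped there. The log2 change was 0.39 ± 0.13 (SE, n = 4 per group, edgeR adjusted p = 0.0074).

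Between the operon bins the control level varied more than the crosslinked level. In crosslinked libraries the 5 means lay between 3010 and 3575 CPM. In controls they lay between 1339 and 2718 CPM, with the lowest means in the psaA bins 40001 and 41001. In both depth pairs each of the 5 bins was higher with crosslinks, and the size differed between the pairs: bin 40001 changed by 0.74 in replicates 1 and 2 and by 1.85 in replicates 3 and 4, and bin 41001 by 0.86 and 1.70. Bin 37001 changed by 0.45 and 1.12 in the same pairs.

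The bin next to the operon was not called at either border. Next to psaA, bins 42001 and 43001, which hold ycf3, a gene for a photosystem I assembly factor, had log2 changes of 0.15 (edgeR adjusted p = 0.18) and -0.04 (adjusted p = 0.72). Beyond psaB, bin 36001, which holds the rest of rps14 and the tRNA genes trnG and trnfM, had a log2 change of 0.30 (adjusted p = 0.078). In replicates 3 and 4 alone bin 36001 changed by 0.55 (edgeR adjusted p = 0.00019), and in replicates 1 and 2 by 0.14 (adjusted p = 0.39). Bin 35001, with the end of the photosystem II gene psbC, psbZ and trnS, rose by 0.59 (adjusted p = 0.0029). How the drop at the ycf3 border compares with other borders of the map was not tested. Whether bin 36001 differs from the psaB bins was not tested either.

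These calls depend on what the libraries are scaled to. When libraries were scaled to their contacts over 5 kb instead of to bin totals, the median bin of the map changed by -1.28 and no operon bin was called. The psaA bins then kept positive log2 changes of 0.36 and 0.28, above that median, and the psaB bins 37001, 38001 and 39001 came to -0.28, -0.772 and -0.727. When the contacts inside each bin served as an offset, bins 38001 and 39001 lost their calls, at 0.27 (adjusted p = 0.052) and 0.15 (adjusted p = 0.33).

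**Figure D1:**
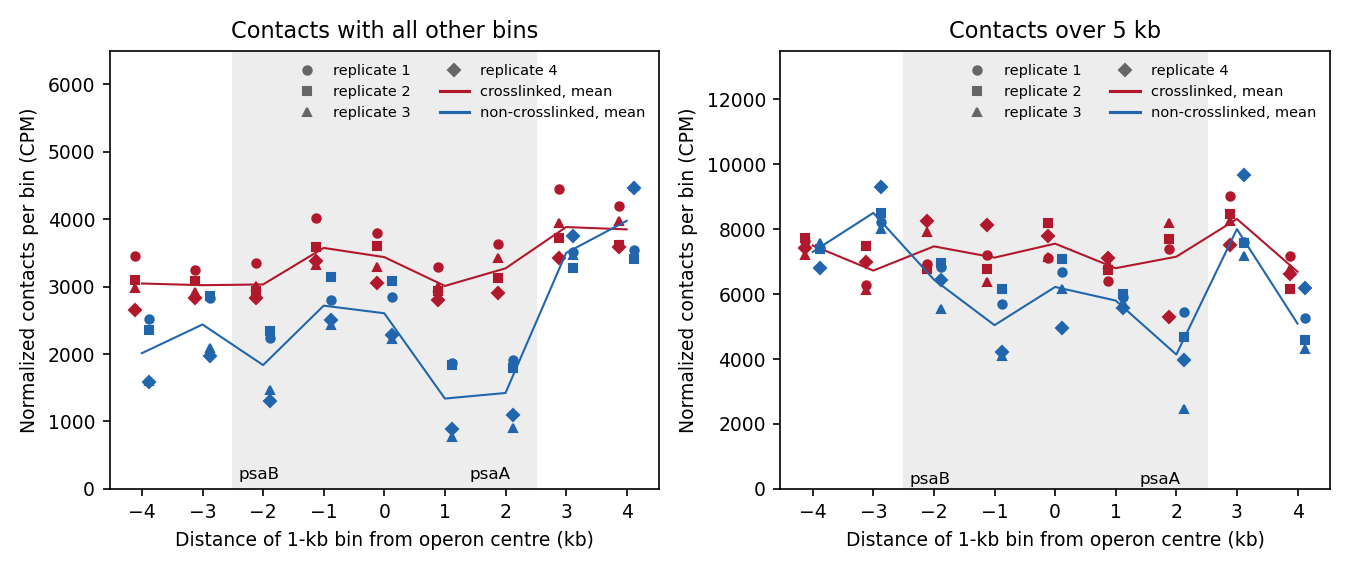
Normalized contacts of 1-kb bins (CPM, vertical axes) against distance from the operon centre in kb, with all other bins on the left and with bins over 5 kb away on the right. Points are single libraries, lines are group means, and the grey band is the operon; on the left the control means fall to 1339 and 1422 CPM in the psaA bins while the crosslinked means stay between 3010 and 3575 CPM across the operon.

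Contacts between neighbouring bins showed where inside the operon the difference lay. The contact across the border between bins 39001 and 40001, inside psaA and near its border with psaB, was 4.84-fold higher with crosslinks, and its log2 change ranked 1 of the 155 adjacent pairs of the map. The contact between bins 38001 and 39001, inside psaB, was not called. At a threshold of 10 counts, 12 of the 765 operon pairs could be tested among 381 pairs of the map, of which 61.4% were called in either direction and 34.4% were called higher. Of the operon's 7 tested pairs of different bins, 6 were higher and none lower. Among the 6, the pair 40001 and 42001 passed the count filter only through its crosslinked libraries, so its direction is no separate support. Of adjacent pairs over the whole map, 61.9% were higher, with a median log2 change of 0.45.

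Between bins 39001 and 40001, the crosslinked libraries held 353, 322, 239 and 184 contacts and the controls 101, 92, 30 and 28. The groups did not overlap in CPM, with means of 627 ± 73.6 and 121 ± 44.5 CPM (SD, n = 4). The log2 change was 2.28 ± 0.20 (SE, n = 4 per group, edgeR adjusted p = 1e-05), and was 1.94 in replicates 1 and 2 and 2.77 in replicates 3 and 4.

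This junction was poor in contacts without crosslinks, at rank 150 of 155 by control level, and stood at rank 116 with crosslinks. The 10 other adjacent pairs with the lowest control levels had control means of 67.4 to 147 CPM, and all 10 were called higher, with log2 changes from 1.19 to 1.70 and a median of 1.52. They were chosen by low control level, which is also the denominator of the change, so high changes among them are partly built in. Of those 10 pairs, 9 include a bin of the inverted repeat, where reads have no unique place.

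At the downstream end of psaB, the pair 37001 and 38001 held 433, 434, 289 and 251 contacts with crosslinks and 171, 180, 80 and 86 without. Its log2 change of 1.59 ± 0.12 (SE, n = 4 per group, edgeR adjusted p = 4e-06) ranked 7 of 155. The neighbouring pair 38001 and 39001 held 597, 588, 400 and 347 contacts with crosslinks and 710, 672, 350 and 437 without. The groups overlapped there, the log2 change was -0.02 ± 0.08 (edgeR adjusted p = 0.80), and the rank was 124.

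Within psaA, the pair 40001 and 41001 held 428, 418, 334 and 291 contacts with crosslinks and 266, 240, 83 and 125 without, a log2 change of 1.23 ± 0.14 (SE, n = 4 per group, edgeR adjusted p = 3.2e-05) at rank 30. Across the upstream border, psaA bin 41001 and ycf3 bin 42001 shared 399, 355, 287 and 258 contacts with crosslinks and 182, 159, 70 and 87 without. That pair changed by 1.55 ± 0.11 (SE, n = 4 per group, edgeR adjusted p = 4e-06) and ranked 11. Across the downstream border, the pair 36001 and 37001 (rps14 with psaB) changed by 0.43 ± 0.10 and ranked 80, close to the median of all adjacent pairs.

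The operon's 6 adjacent pairs thus ranked 1, 7, 11, 30, 80 and 124 of 155, with rank 80 at the rps14 end and rank 124 inside psaB. The remaining tested pair joined bins 40001 and 42001, psaA and ycf3, with 20, 16, 12 and 9 contacts with crosslinks and 7, 2, 0 and 0 without. Its fitted log2 change was 2.05 ± 0.47 (SE, n = 4 per group, edgeR adjusted p = 0.0027), on counts near the floor in controls. The pair could enter the test only through the crosslinked group, where it is high.

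Contacts inside single bins did not pass the test in the operon in edgeR with all 8 libraries and TMM. None of the 5 same-bin pairs of the operon was called, while 49.7% of the map's same-bin pairs were lower with crosslinks. The 5 log2 changes ran from -0.13 in bin 40001 to 0.06 in bin 39001, with a median of -0.09 against -0.21 for all bins. Some were called in other runs. Bin 40001 was lower in DESeq2 (-0.15, adjusted p = 0.015) and in replicates 1 and 2 alone (-0.26, edgeR adjusted p = 0.030). Bin 41001 was also lower in replicates 1 and 2 alone (-0.25, edgeR adjusted p = 0.026). Bin 39001 was higher when library totals were used without TMM (0.19, edgeR adjusted p = 0.013). When libraries were scaled to contacts over 5 kb, 1 of the 12 tested operon pairs was called. It was the pair 40001 and 42001, which entered the test only through the crosslinked group. The median over all tested pairs of the map was then -1.57, and the pair 40001 and 41001 had a log2 change of -0.10. In that scaling the pair 39001 and 40001 still had 1.11 (adjusted p = 0.21). Without a filter on low counts, the pair 40001 and 41001 missed the threshold (adjusted p = 0.14) and the pair 36001 and 37001 came to -0.0295.

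**Figure D2:**
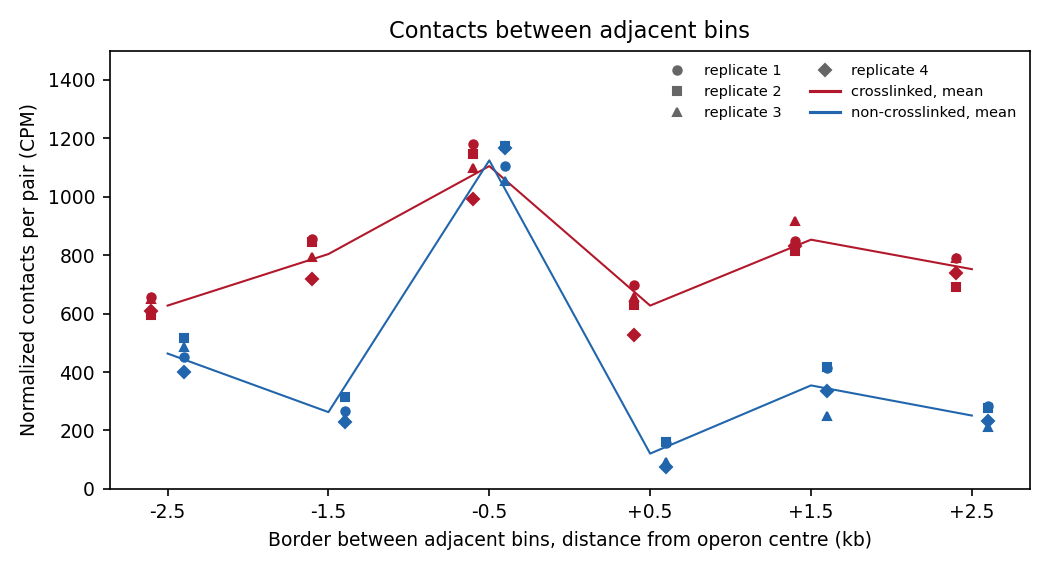
Normalized contacts between adjacent 1-kb bins (CPM, vertical axis) at 6 borders, placed by the distance of the border from the operon centre in kb. Points are single libraries and lines are group means; at the border +0.5 kb from the centre, between bins 39001 and 40001, the means are 627 and 121 CPM, and at -0.5 kb, between bins 38001 and 39001, the groups overlap.

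The share of a bin's contacts that stayed within it needs no scaling between libraries. A library's map-wide level of same-bin contacts enters this share, and its change in the median bin of the map is not given here. In bin 41001 the share was 47.6%, 54.3%, 53.5% and 60.9% with crosslinks and 67.8%, 73.7%, 87.0% and 82.2% without. In bin 40001 it was 59.3%, 66.9%, 67.0% and 72.2% with crosslinks and 76.9%, 80.7%, 92.2% and 91.3% without. Every control library thus kept a larger share inside both psaA bins than any crosslinked library did. Means in psaB bins 37001 and 38001 were 70.6% and 58.2% with crosslinks, and 83.4% and 69.8% without, also with no overlap. In bin 39001 the means were 68.5% and 76.9% and the groups overlapped. The groups were apart in 4 of the 5 bins, against 31.6% of all bins, and no 95% Wilson interval of a single value was wider than 2.29 points on each side. These intervals, and all others given here, cover counting error only.

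Split by distance of the partner, the operon's rise was called in most bins at 2 to 5 kb, and bin 41001 alone was called higher at each distance. Each distance class was fitted and scaled on its own, so a change is relative to the contacts of all bins in that class. Distance was taken along the circular genome, with bins of the inverted repeat placed at the nearer of their copies. For contacts with the adjacent bins, 3 of the 5 operon bins were higher, against 39.4% of all bins. At 2 to 5 kb 4 of 5 were higher, against 26.5%. At 6 to 20 kb 1 of 5 was higher, against 25.8%, and over 20 kb 2 of 5, against 31%, with no operon bin lower in any class.

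Adjacent contacts rose in bins 37001, 40001 and 41001, with log2 changes of 0.50, 1.13 and 0.91. Those of bins 38001 and 39001 stayed at -0.01 and 0.00, and both took a positive value past the threshold (0.23 and 0.24) when library totals were used without TMM. Each of these sums joins the uncalled junction of bins 38001 and 39001 with a junction that was called higher as a pair. Those pairs were 37001 with 38001, and 39001 with 40001, in a fit with its own scaling. As class sums, the called rises of bins 38001 and 39001 were at other distances.

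At 2 to 5 kb, bin 41001 had 108, 60, 68 and 26 contacts with crosslinks and 25, 24, 2 and 1 without, a log2 change of 1.07 ± 0.25 (SE, n = 4 per group, edgeR adjusted p = 0.00014). Bins 39001, 40001 and 38001 changed by 0.71, 0.64 and 0.58, and bin 37001 had 0.38 (edgeR adjusted p = 0.17). Bins 38001, 39001 and 40001 were not past the threshold within replicates 1 and 2 alone (adjusted p = 0.078, 0.072 and 0.14), and each lost its call without non-crosslinked replicate 1 (adjusted p = 0.13, 0.21 and 0.075). Within replicates 3 and 4 alone, bins 38001, 39001 and 41001 missed the threshold (edgeR adjusted p = 0.19, 0.66 and 0.12), and bin 40001 passed (0.049). Bin 41001 passed within replicates 1 and 2 (0.025). Without crosslinked replicate 4 the adjusted p was 0.056 for bin 38001 and 0.062 for bin 40001. Without non-crosslinked replicate 2 bin 38001 came to 0.076, and without non-crosslinked replicate 3 bin 40001 came to 0.055. Conversely, bin 37001 passed without crosslinked replicate 1, at 0.56 (adjusted p = 0.032).

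The raw contacts behind the close-range class show how many counts it rests on. They are not scaled, so gaps between groups also carry each library's level of such contacts over the whole map. In bin 41001, the 68 and 2 contacts of replicate 3 with and without crosslinks came to 11794 and 5193 CPM. Over the 6 pairs inside the operon that lie 2 to 4 kb apart, crosslinked libraries held 91, 59, 47 and 30 contacts, and controls held 30, 27, 1 and 1. Over 14 pairs that cross the psaA end into ycf3 and beyond, the counts were 173, 114, 85 and 42 against 49, 35, 3 and 3. Over 13 pairs that cross the psaB end they were 130, 122, 61 and 40 against 73, 42, 6 and 3. In each of these sums the shallower controls held 6 contacts or fewer.

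At greater distance only bin 41001 was called in both classes. At 6 to 20 kb it had 223, 143, 93 and 41 contacts with crosslinks and 113, 78, 4 and 5 without, a log2 change of 0.69 ± 0.15 (edgeR adjusted p = 0.00013, n = 4 per group). Over 20 kb its change was 0.55 ± 0.14 (adjusted p = 0.001), and that of bin 38001 was 0.34 ± 0.12 (adjusted p = 0.016). Without non-crosslinked replicate 1, the call of bin 38001 over 20 kb was lost (adjusted p = 0.10).

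**Figure D3:**
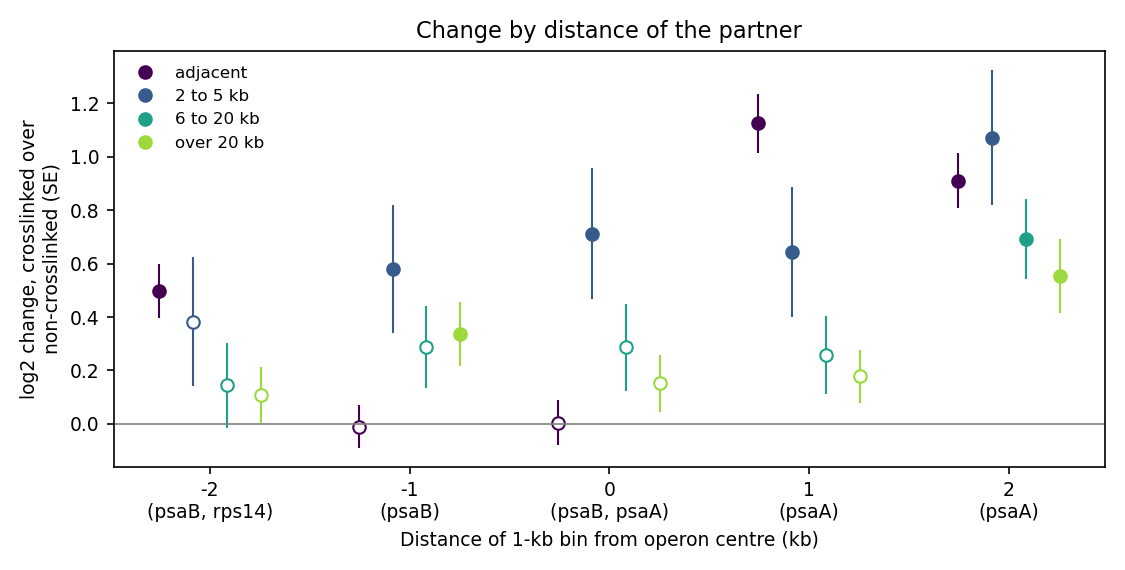
Fitted log2 change of crosslinked over non-crosslinked libraries (vertical axis, bars are SE, n = 4 per group) for each operon bin, placed by its distance from the operon centre in kb, in 4 classes of partner distance. Filled points passed the threshold and open points did not; bin 41001, at 2 kb, is filled in all 4 classes and has its highest value, 1.07, at 2 to 5 kb.

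Taken as 1 sum over 5 kb, the operon's long-range contacts rose in 3 of 5 bins, against 31.6% of all bins, with a median log2 change of 0.20 beside 0.05 for the map. Groups were apart in 3 of 5 bins, against 65.2% of all bins, so separation by itself was common at this range. Bin 41001 had 7406, 7712, 8192 and 5305 CPM with crosslinks and 5436, 4694, 2460 and 3963 CPM without. Crosslinked replicate 4 lay below non-crosslinked replicate 1, and the log2 change was 0.60 ± 0.13 (SE, n = 4 per group, edgeR adjusted p = 0.00091), at rank 22 of 155.

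Bin 38001 gave 7216, 6772, 6381 and 8134 CPM with crosslinks and 5700, 6163, 4100 and 4211 CPM without, with no overlap and a log2 change of 0.33 ± 0.11 (SE, n = 4 per group, edgeR adjusted p = 0.011). Bin 40001 gave 6420, 6739, 6921 and 7117 CPM with crosslinks and 5903, 5989, 5740 and 5573 CPM without. That is a narrow gap with no overlap, and the log2 change was 0.19 ± 0.08 (edgeR adjusted p = 0.041).

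The call of bin 40001 was lost in 7 of the 8 fits that left out 1 library (adjusted p = 0.056 to 0.11, each library but crosslinked replicate 1), in DESeq2 (0.13), with partners over 10 kb (0.11) and when contacts inside the bin served as an offset (0.063). Bins 37001 and 39001 had log2 changes of 0.13 (adjusted p = 0.24) and 0.20 (adjusted p = 0.092). Both passed when libraries were scaled to their total contacts over 5 kb, at 0.24 and 0.30, and when only single-copy bins were counted, at 0.31 and 0.41. The counts of non-crosslinked replicate 3 behind these 5 values were only 12 to 30 contacts.

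Beyond the operon's ends, bin 36001 (rps14, trnG and trnfM) was lower at this range, at -0.33 (edgeR adjusted p = 0.0062). Bin 42001, the ycf3 bin next to psaA, had 0.09 (adjusted p = 0.44), and ycf3 bin 43001 was higher, at 0.41 (adjusted p = 0.0013).

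Of all contacts over 5 kb, the operon took part in 7.32%, 7.55%, 7.71% and 7.57% with crosslinks and in 5.97%, 6.05%, 4.43% and 4.80% without. The operon bins make up 6.69% of the bin pairs at that range, so its share lay above that level with crosslinks and below it without. The means were 7.54% ± 0.159 and 5.31% ± 0.819 (SD, n = 4), the difference was 1.43 points in replicates 1 and 2 and 3.03 points in replicates 3 and 4, and the widest 95% Wilson interval was 0.853 points on each side. The groups did not overlap, but neither did they in 80.6% of the 31 windows of 5 kb that tile the map. The operon's ratio of 1.42 ranked 8 among them. For contacts between any 2 different bins, adjacent ones included, the operon's mean share was 2.48% with crosslinks and 1.38% without, and that ratio of 1.80 ranked 1 of 31.

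Observed contacts were also set against the mean of the large single copy region at the same distance, where 1 is that mean. Without crosslinks the operon's mean lay below 1 in each class: 0.378 for adjacent bins, 0.761 at 2 to 5 kb, 0.698 at 6 to 20 kb and 0.729 at 21 to 40 kb. At 2 to 5 kb the controls ranged from 0.396 to 1.05, and the highest, non-crosslinked replicate 3, lay above 1. With crosslinks the means were 0.580, 1.25, 1.13 and 0.980. The groups did not overlap in any of these classes over the whole operon, and no test was made. How often groups are apart in this measure elsewhere on the map was not counted. For bin totals over 5 kb they were apart in 65.2% of all bins. At 2 to 5 kb the psaA bins 40001 and 41001 stood at 1.30 and 1.33 with crosslinks and 0.562 and 0.612 without. At 6 to 20 kb bin 41001 stood at 1.17 and 0.541. Contacts with adjacent bins stayed below the mean of the region in both groups.

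Partners over 5 kb away were then divided by the region of the plastid genome they lie in, with each region fitted and scaled on its own. With partners in the large single copy region, 4 of the 5 operon bins were higher, against 31.6% of all bins. Bin 41001 changed by 0.74 ± 0.13 (edgeR adjusted p = 1.3e-05, n = 4 per group), and bins 38001, 40001 and 39001 by 0.40, 0.29 and 0.27. In bin 41001 the contacts were 450, 291, 186 and 74 with crosslinks and 286, 174, 8 and 13 without, and the groups did not overlap in CPM.

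With partners in the inverted repeat no operon bin was called, against 25.8% of all bins called higher, and the log2 changes ran from -0.22 in bin 40001 to 0.25 in bin 41001. With partners in the small single copy region 2 of 5 were higher, against 31.6%: bin 40001 at 0.50 (edgeR adjusted p = 0.016) and bin 41001 at 0.43 (adjusted p = 0.048). Both calls were lost in DESeq2 (0.11 and 0.14). Without non-crosslinked replicate 1 bin 40001 came to 0.20. Bin 41001 missed the threshold without crosslinked replicate 1 or 3 (0.22 and 0.14) and without non-crosslinked replicate 2, 3 or 4 (0.35, 0.067 and 0.063). Whether the operon's change differs between partner regions was not tested.

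In the large single copy region, the call of bin 39001 was lost without crosslinked replicate 2 or 4 (0.079 and 0.054) and without non-crosslinked replicate 2 (0.095), and in DESeq2 (0.068). That of bin 40001 was lost without non-crosslinked replicate 1 (0.061) and in DESeq2 (0.067). Bins 38001 and 41001 kept their calls there in every alternative run.

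To name partners, the operon was treated as 1 window of 5 kb and its contacts with the whole map, itself included, were tested as 31 window pairs among 496. Of these, 4 were higher and none was lower. An unadjusted p under 0.05, in either direction, was found for 10, with those from 12001, 117001 and 122001 lower. The share of all window pairs under 0.05 was not counted. Groups were apart in 4 of the 31, against 112 of the 496. Among called windows only that from 47001 kept the groups apart. Over all window pairs 8.67% were higher and 19% were lower, and the median log2 change was 0.12 for the operon and -0.10 for all. This fit is scaled mostly by far pairs, and the pair counts of non-crosslinked replicates 3 and 4 were in single digits for each called partner. Leaving out 1 library at a time moved the count of higher windows to between 1 and 9: it was 1 without crosslinked replicate 1 or 2, and among controls it was 2 without replicate 2 and 9 without replicate 1. Windows called lower appeared without crosslinked replicate 2 or 4 (1 each) and without non-crosslinked replicate 3 or 4 (2 each).

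The partner with the largest called change was the window from 47001 to 52000, which holds ndhC, ndhJ and ndhK, encoding subunits of the chloroplast NADH dehydrogenase-like complex, and the tRNA genes trnF, trnL and trnV. The operon shared 223, 145, 103 and 59 contacts with it in crosslinked replicates and 103, 73, 2 and 7 in controls. In CPM all crosslinked libraries lay above all controls. The log2 change was 1.11 ± 0.22 (SE, n = 4 per group, edgeR adjusted p = 5.1e-06), with 0.96 in replicates 1 and 2 and 2.07 in replicates 3 and 4. The call held in each fit that left out 1 library, and was lost when library totals were used without TMM (adjusted p = 0.13). In that setting the median of all window pairs rose to 0.77 and the other 3 called windows lost their calls too, at 1.38, 1.58 and 1.45 (adjusted p = 0.65 to 0.67).

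The next window, from 52001 to 57000, holds rbcL, the large subunit of Rubisco, and atpB and atpE of the ATP synthase. It shared 168, 102, 70 and 38 contacts with the operon with crosslinks and 119, 66, 1 and 7 without, and the groups overlapped in CPM. The log2 change was 0.57 ± 0.22 (SE, n = 4 per group, edgeR adjusted p = 0.036). It missed the threshold without crosslinked replicate 1 or 2 (0.067 and 0.0913) or non-crosslinked replicate 2 (0.13).

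The other called partners lie in or touch the inverted repeat. The window from 87001 to 92000, within ycf2, changed by 0.73 ± 0.28 (SE, n = 4 per group, edgeR adjusted p = 0.037). The window of 147001, in the other copy of ycf2, had 0.62 (adjusted p = 0.072), and reads of the repeat cannot be told apart between its copies. The window from 152001, which runs past the end of the map to the photosystem II gene psbA, changed by 0.62 ± 0.23 (edgeR adjusted p = 0.027). Within it, the operon shared 86, 62, 31 and 13 contacts with the first 2 bins of the map (psbA, trnH and trnK) with crosslinks and 49, 37, 1 and 2 without. Both calls were lost without crosslinked replicate 1 (0.25 and 0.086) or 2 (0.20 and 0.13), and that of 87001 also without non-crosslinked replicate 2 (0.14).

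**Figure D4:**
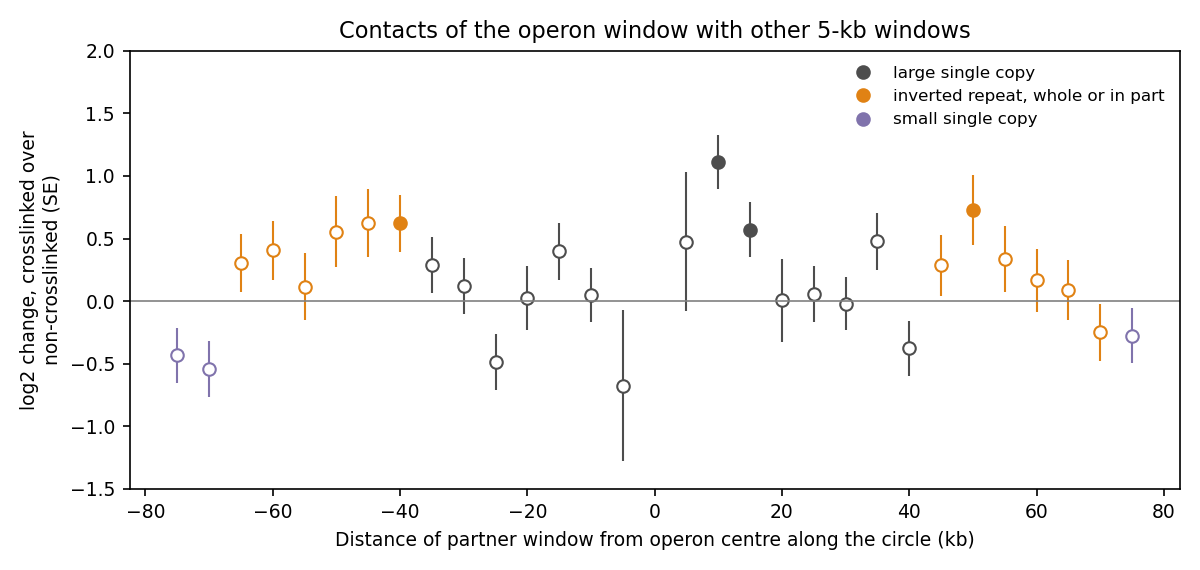
Fitted log2 change of the operon window's contacts with each of the other 30 windows of 5 kb (vertical axis, bars are SE, n = 4 per group) against distance from the operon centre along the circle in kb. Filled points passed the threshold; the highest, 1.11, is the ndhC, ndhJ and ndhK window, and the nearest windows on either side have the widest errors.

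Genes of the photosynthetic complexes were looked up by the windows that hold them. The 5 windows with the other plastid genes of photosystem I and its assembly (psaC, psaI, psaJ, ycf3 and ycf4) held no call, with a median log2 change of 0.00 and a range from -0.43 to 0.47. Of 6 windows with photosystem II genes 1 was higher, the psbA window, with a median of 0.09. The psbD and psbC window next to the operon had a log2 change of -0.68 ± 0.60 (edgeR adjusted p = 0.40), with 0.35 in replicates 1 and 2 (adjusted p = 0.35) and -1.05 in replicates 3 and 4 (adjusted p = 0.0024).

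None of the 5 windows with cytochrome b6f genes was called (median 0.05), nor any of the 4 with genes of the plastid RNA polymerase (median -0.18). Of 3 windows with ATP synthase genes 1 was higher (median 0.12), the window that also holds rbcL. All medians stand beside -0.10 for all window pairs of the map.

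Among single bin pairs over 5 kb, few could be resolved at this depth. Without a filter on low counts, 2 of 720 such operon pairs were called higher and none lower in edgeR. That is 0.278%, near the 0.232% called higher of all pairs over 5 kb, of which 0.641% were lower. An unadjusted p under 0.05 was found for 68 operon pairs, or 9.44%, against 12.8% of all. The 2 called pairs were chosen after their values were seen: bin 40001 with bin 51001 (trnV), with 8, 10, 2 and 5 contacts against 2, 0, 0 and 0, and bin 41001 with bin 53001 (atpB), with 13, 10, 4 and 3 against 3, 0, 0 and 0. Both are psaA bins, and both partners lie in the 2 called windows of the large single copy region. The counts of both pairs are part of those window sums, so this adds no separate support.

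The profile of bin totals over the 8 libraries was compared between the operon genes and 140 bins elsewhere, as the root mean square difference of centred log2 CPM. Nearest to the mean of psaA bins 40001 and 41001 were bin 25001 (rpoB, a subunit of the plastid RNA polymerase) at 0.173, bin 75001 (petB, cytochrome b6) at 0.185 and bin 52001 (atpB, atpE and trnM) at 0.200, where the median bin stood at 0.794. The totals of bins 25001, 75001 and 52001 had log2 changes of 1.10, 0.91 and 1.03, beside 1.14 and 1.18 in bins 40001 and 41001. Nearest to the mean of psaB bins 37001 and 38001 were bin 19001 (rpoC2) at 0.0750, bin 83001 (rpl22 and rps3) at 0.0811 and bin 74001 (petB, psbH, psbN and psbT) at 0.0884, with a median of 0.417. All of these bins lie in the large single copy region, which holds 84 of the map's 155 bins.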

How the data were processed

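The members, gene lists and tests were chosen with earlier results of these data known. The authors deposited raw contact counts for pairs of 1-kb bins, 1 column per library, per the file headers. The submitters' processing notes name Trim Galore 0.4.1, Juicer and the TAIR10 build. The restriction enzyme, read filters and placement of repeat reads are not given in the sources used here.

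Counts were summed per bin, distance class, partner region and 5-kb window. The contacts between its copies placed the inverted repeat at bases 84001 to 111000 and again from base 128001 onward. Each table was tested whole with edgeR 4.0.16 in R 4.3.3 (TMM, quasi-likelihood, prior count 2, Benjamini-Hochberg, threshold 0.05). Pairs and windows were filtered with filterByExpr at a minimum count of 10. The SE was derived from the log2 change and the F statistic, as their ratio after the root of F was taken. Python 3.11.15, numpy 2.4.6, pandas 2.3.3, scipy 1.17.1 and matplotlib 3.10.9 were used, and DESeq2 1.42.0 was an alternative. The other alternatives were library totals without TMM, scaling on contacts over 5 kb, same-bin counts as an offset, no filter, single-copy bins alone, partners over 10 kb, a replicate block, each depth pair alone and each library left out. The fits were tested on simulated data. No 2 libraries held the same counts: the smallest chi-square per degree of freedom within a group was 1.48.

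Gene names are those of a RefSeq table of TAIR10.1. Its coordinates are not printed, since the build name differs. Named were all operon bins and pairs, up to 5 called pairs and windows each way by log2 change, their genes, the listed complexes, the neighbours and the 3 bins nearest in profile.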

Additional observations from a re-analysis of the deposited data

Results flagged for a closer look

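In 2 of 138 groups of 4 libraries, 1 library of an operon value lay far from the rest by Dixon's test, which flags about 1 in 20 groups by chance. Adjacent contacts of psaB bin 38001 were 5620.81 CPM in crosslinked replicate 3, with the nearest other library at 5896.57 CPM. Contacts of bin 37001 (psaB and rps14) at 6 to 20 kb were 8771.73 CPM in crosslinked replicate 4, with the nearest at 6365.73 CPM, and rest there on 64 contacts. Neither value had a call in its fit.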

How the results depend on the processing

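Of 889 recomputed values of single bins, pairs and windows, 742 kept their direction and side of the threshold. Scaling on contacts over 5 kb moved the most: it called 0 of 5 bin totals, 5 of 5 long-range totals, 1 operon pair, 10 of 15 partner-region values and 15 windows (13 higher, 2 lower). It also reversed totals of bins 37001, 38001 and 39001 (-0.277, -0.772 and -0.727) and adjacent contacts of bins 37001 and 41001 (-0.600 and -0.00980). The pairs 36001 with 37001 (-1.15) and 40001 with 41001 (-0.101) were reversed too, beside a median of -1.57 over all tested pairs. The cause was not tested. Same-bin counts as an offset left 3 bin totals called, those of bins 37001, 40001 and 41001. Without TMM 5 long-range totals and 2 windows, none of the 4 named, were called, and adjacent contacts of bin 38001 turned to 0.228. With single-copy bins alone 5 long-range totals were called. Without a filter the pair 36001 with 37001 turned to -0.0295. DESeq2 called 2 partner-region values. Replicates 1 and 2 alone called 21 of 30 operon pairs tested there (19 higher, 2 lower), where the 8 libraries allowed 12 to be tested, and 3 partner-region values, and replicates 3 and 4 alone called 2 partner-region values and 10 windows (8 higher, 2 lower). Leaving out 1 library at a time called 6 to 11 distance-class values, against 10, with 6 without non-crosslinked replicate 1. It called 1 to 9 windows in either direction, against 4: 1 without crosslinked replicate 1, 2 without crosslinked replicate 2 (1 lower) or non-crosslinked replicate 2, 7 without crosslinked replicate 4 (1 lower) or non-crosslinked replicate 3 or 4 (2 lower each), and 9 without non-crosslinked replicate 1. Deviations of same-numbered replicates correlated at 0.63, -0.21, 0.17 and 0.36 for bin totals, not above 0.1 in every pair, and 2 of the 4 crosslinked replicates correlated best with their own number, so the numbers were not taken as pairs. With the replicate block 5 bin totals, 2 long-range totals, 6 pairs, 10 distance-class values, 4 partner-region values and 4 windows were called. It ended the calls of bin 40001 over 5 kb (adjusted p = 0.12), bin 39001 with the large single copy region (0.051) and bin 41001 with the small single copy region (0.068). Depth limits single pairs over 5 kb and every long-range value of non-crosslinked replicates 3 and 4.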
